A study of Mus musculus with 3 samples.

Results

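The 35 genes described here carry glucose into the cell, break it down to pyruvate and lactate, and feed or regulate that route; they were picked by gene symbol out of the 55536 genes quantified in each library. They comprise 2 carriers of the glucose transporter family, the enzymes of the 10 glycolytic steps with their isozymes and the bifunctional enzymes that set phosphofructokinase activity. The rest are fructose bisphosphatase, lactate dehydrogenase, pyruvate dehydrogenase with its kinases, 2 lactate carriers, 2 pentose phosphate enzymes and the transcription factor subunit Hif1a. The question put to the data was which isozyme supplies the RNA of each step, how firmly, and which form of pyruvate kinase M is spliced. RNA came from the cytosolic fraction of primary macrophages grown from the bone marrow of C57BL/6J mice, and every library was made from cells given Lipid A at 100 ng/ml for 40 min. Lipid A is the portion of bacterial lipopolysaccharide that Toll-like receptor 4 recognises. The 3 libraries were built from ribosome-depleted total RNA, 1 µg each, and form 1 group whose members share a single donor record, so the spread between them may be technical. Unstimulated cells and other fractions were not analysed here, and no value is a response to Lipid A.

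Glycolysis converts glucose to pyruvate in the cytosol and yields ATP without oxygen. Macrophages that sense bacterial products are known to take up more glucose and to release lactate. Many steps are served by several isozymes, encoded by separate genes, that differ in how they are regulated and in which tissues use them. Hexokinase, phosphofructokinase and pyruvate kinase catalyse the steps that are essentially one-way in cells, and Hif1a is known to raise the transcription of many genes of the route.

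Pyruvate kinase M is the member in which a single splicing choice defines the enzyme. Its gene, Pkm (ENSMUSG00000032294.17; mm10 chr9:59656368-59679375, plus strand), has 2 mutually exclusive exons, 1 found in the M1 form and 1 in the M2 form, each the exon numbered 9 of 11 in its own transcript and 167 bases long. They are printed because the M1 and M2 transcripts can be told apart by reads over these bases. The M1 exon lies at chr9:59675029-59675195 and the M2 exon at chr9:59675568-59675734, 372 bases further on, both coding and read from the GENCODE M21 transcripts. Capitals mark the 64 positions at which the exons differ, counted without gaps, and lower case the 103 shared positions (61.7%).
M1 exon: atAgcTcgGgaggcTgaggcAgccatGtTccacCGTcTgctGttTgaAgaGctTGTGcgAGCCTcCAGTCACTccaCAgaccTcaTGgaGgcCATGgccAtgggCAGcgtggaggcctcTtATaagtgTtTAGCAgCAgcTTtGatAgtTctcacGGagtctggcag
M2 exon: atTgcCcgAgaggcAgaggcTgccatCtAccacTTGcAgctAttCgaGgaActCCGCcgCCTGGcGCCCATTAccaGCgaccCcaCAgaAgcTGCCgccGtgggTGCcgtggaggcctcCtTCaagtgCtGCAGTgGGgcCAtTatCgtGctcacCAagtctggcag

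M2 was the predominant form in each library. The M2 transcript Pkm-201 stood at 111.9, 143.3 and 101.5 TPM (transcript abundance per unit of length, scaled to a fixed library sum) in replicates 1, 2 and 3, and the M1 transcript Pkm-202 at 15.4, 10.4 and 14.6 TPM. Of the TPM in transcripts holding exactly 1 of the exons, M2 took 87.8%, 93.2% and 87.4%, or 89.5% ± 3.26 (SD, n = 3). The second transcript table, a separate quantification of the same libraries, gave 86.8%, 92.6% and 87.7%, with a mean of 89.0% ± 3.14. In both tables replicate 2 held the highest M2 share, and the lowest M2 share of any library in either table was 86.8%. The estimated counts behind the first table's values were 13525, 16312 and 24852 for Pkm-201 against 1535, 972.2 and 2933 for Pkm-202. The M2 shares are of whole transcripts, which also differ at their ends. Counted from the start of the gene, Pkm-201 runs from base 0 to 23007 and Pkm-202 from 205 to 22821. Reads over the M1 and M2 exons alone were not counted. Of 11 annotated Pkm transcripts, 8 hold neither exon whole, and the retained-intron transcript Pkm-203, the other one with the M1 exon, stood at 0.10 TPM or less in the first table.

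**Figure D1:**
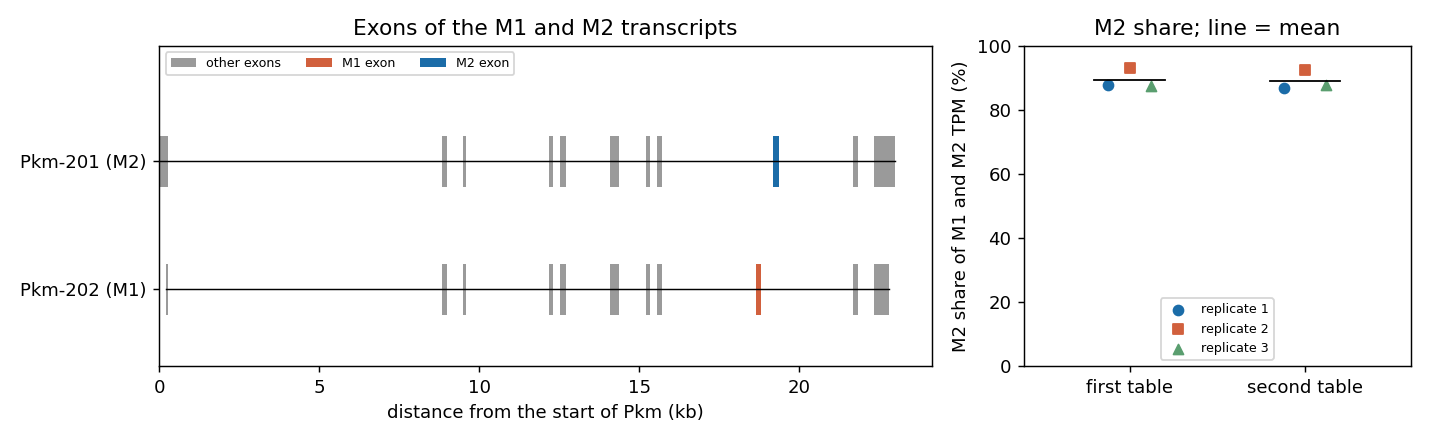
Left, exons of the M2 transcript Pkm-201 and the M1 transcript Pkm-202 by distance from the start of the gene in kb, with the M1 exon in orange and the M2 exon in blue. Right, the M2 share of M1 and M2 TPM in percent, 1 point per library and a line at the mean, in both transcript tables; all 6 points lie between 86.8% and 93.2%.

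At the gene level, 34 of the 35 members (97.1%) had a mean of 1 TPM or more, against 43% of all annotated protein-coding genes and 82.8% of those detected at 0.1 TPM or more. Within the highest 10% of the 11445 detected protein-coding genes, above 41.7 TPM, lay 12 members (34.3%, against a background of 10% by definition). These 12 were Gapdh, Aldoa, Pkm, Ldha, Pgam1, Pgk1, Eno1, Tpi1, Gpi1, Hk3, Pgd and G6pdx, which is 1 enzyme for each core step but phosphofructokinase, together with lactate dehydrogenase and the pentose phosphate pair. The median member that passed 0.1 TPM stood at percentile 68.6 of the detected protein-coding genes. Together the members made up 0.481%, 0.577% and 0.541% of the TPM of nuclear protein-coding genes. Nuclear protein-coding genes held 32.8%, 36.2% and 23.5% of all TPM in replicates 1, 2 and 3, and TPM is a share of that total. Libraries are therefore compared below on log2 CPM, counts scaled to library size, with TMM scaling (trimmed mean of M values).

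**Figure D2:**
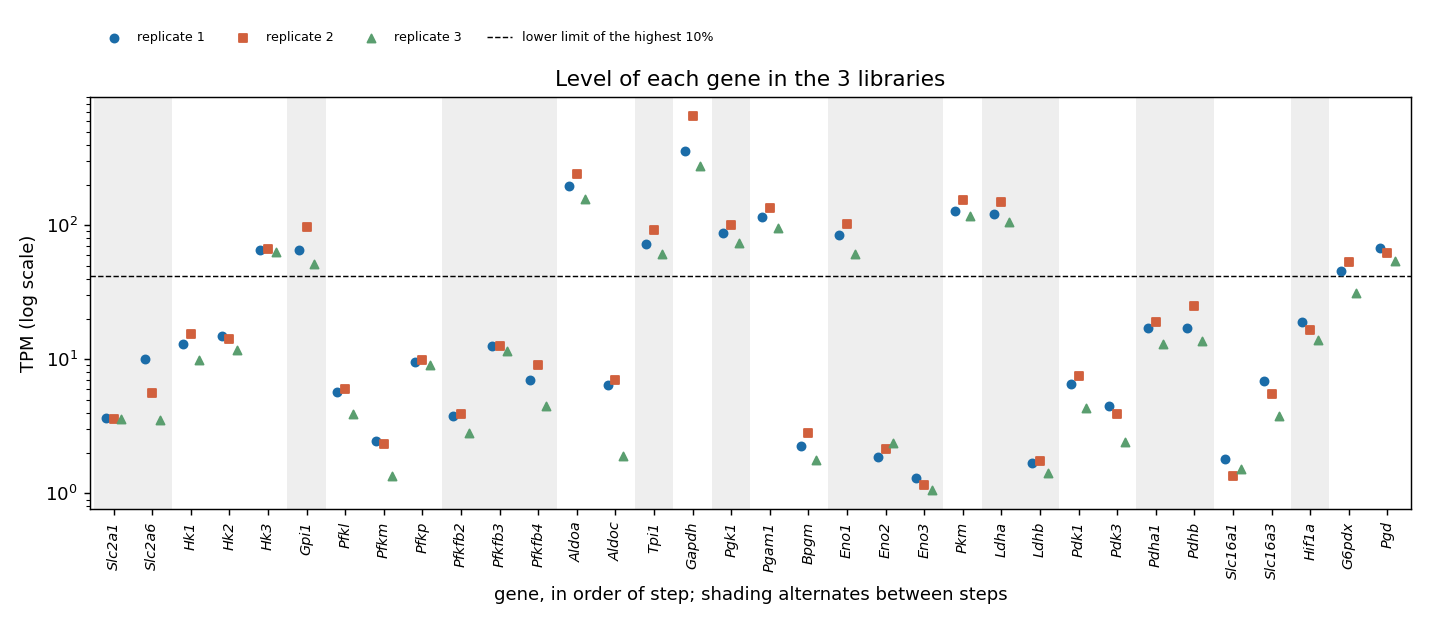
TPM (log axis) of 34 members in order of step, 1 symbol per library; the dashed line is the lower limit of the highest 10% of detected protein-coding genes, 41.7 TPM. Fbp1 is left out because 2 of its libraries are at 0; Gapdh is highest in every library, and Aldoc in replicate 3 lies apart from its other 2 libraries.

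For the libraries as a whole, expected counts over genes summed to 37861150, 37136495 and 58889061. All 7 macrophage markers had means of 25.7 TPM or more, led by the lysozyme gene Lyz2 with a mean of 5974. Summed TPM of the 5 neutrophil markers ran from 2.81 to 3.86, mostly Ngp, and Ly6g was at 0 counts. The 5 erythroid markers summed to at most 0.05 TPM, the 5 muscle markers to at most 0.15 and the 5 fibroblast markers to at most 0.23, while of the 5 neuron markers Syn1 alone passed 1 TPM, at 3.45 to 6.15. In bulk RNA, fewer cells of a type and less RNA per cell cannot be told apart.

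The members of the glucose transporter family were low, and where in the cell each carrier acts was not measured. Slc2a1, the widely used glucose carrier, stood at 3.67, 3.62 and 3.58 TPM, and Slc2a6, a related sugar carrier, at 10.1, 5.58 and 3.55. Slc2a6 was therefore the higher in replicates 1 and 2 and about level with Slc2a1 in replicate 3, and the pair did not separate (log2 ratio of TPM + 1 of 0.58 ± 0.63, SD, n = 3). Slc2a6 took 73.4%, 60.7% and 49.8% of the TPM of the pair. Of the carriers outside the 35 genes, Slc2a8 was the highest at 7.30, 5.15 and 4.28 TPM, above Slc2a1 in each library.

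Hexokinase, which traps glucose by phosphorylating it, was mostly Hk3 RNA. Hk3 stood at 65.4, 66.9 and 63.0 TPM and took 70.1%, 69.3% and 74.4% of the hexokinase TPM. Its log2 ratio over Hk1 was 2.28 ± 0.26 and over Hk2 2.19 ± 0.13. Hk1 stood at 13.1, 15.5 and 9.95 TPM and Hk2 at 14.8, 14.1 and 11.7, and these isozymes, both known to bind mitochondria, were not separated (0.09 ± 0.19). The order of Hk1 and Hk2 turned over in the second table, where Hk2 over Hk1 was -0.31 ± 0.16. These ratios, and the pair ratios that follow, are differences of log2(TPM + 1) within a library; a pair was counted as separate where all 3 libraries had the same sign and the mean exceeded 2 SD.

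By that rule 16 of 19 pairs within steps were separate, and the 3 that were not were Slc2a6 and Slc2a1, Hk2 and Hk1, and the subunits Pdhb and Pdha1. The exact two-sided sign-flip permutation test over 3 libraries cannot go below p = 0.25, which is the value of each of the 16 pairs (0.297 after Benjamini-Hochberg adjustment over 19 pairs), so the separation rests on size against spread and not on that test.

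Glucose phosphate isomerase Gpi1, a step with a single gene, stood at 65.7, 97.0 and 51.1 TPM. Phosphofructokinase 1, the committed step, had the lowest summed level of the 10 core steps in every library, at 17.8, 18.3 and 14.4 TPM. Its platelet-type subunit Pfkp led with 9.61, 9.89 and 9.11 TPM, or 57.2% ± 5.33 of the step. The liver-type Pfkl had a mean of 5.23 ± 1.14 TPM and the muscle-type Pfkm 2.05 ± 0.61. Pfkp exceeded Pfkl by 0.77 ± 0.23, and Pfkl exceeded Pfkm by 1.04 ± 0.07, so all 3 subunits were ordered alike in each library.

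The bifunctional enzymes that make and remove the sugar bisphosphate activating phosphofructokinase summed to 23.4, 25.7 and 18.8 TPM. Pfkfb3, the isozyme known for its high ratio of kinase to phosphatase activity, stood at 12.6, 12.6 and 11.5 TPM. Pfkfb4 had a mean of 6.89 ± 2.33 TPM and Pfkfb2 of 3.50 ± 0.61. Pfkfb3 exceeded Pfkfb2 by 1.57 ± 0.13. Its lead over Pfkfb4, 0.79 ± 0.38, was present in all 3 libraries but was less firm. Without replicate 1 it was 0.81 ± 0.54, and it was 0.76 ± 0.59 by the second quantification. With 0.1 in place of 1 added to TPM it was 0.88 ± 0.44. With TPM rescaled to protein-coding genes it was 0.86 ± 0.44, and none of these was beyond 2 SD.

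Fructose bisphosphatase Fbp1, which runs the phosphofructokinase step backwards in gluconeogenesis, was the single member below 1 TPM. It had 1, 0 and 0 counts in replicates 1, 2 and 3, listed as 0.01, 0 and 0 TPM. Taking 3 counts as the limit that a count of 0 allows, Fbp1 could have stood at up to 0.0831 TPM in replicate 2 and 0.0383 in replicate 3; such limits cover counting error only.

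Each glycolytic step below phosphofructokinase drew nearly all of its RNA from 1 gene, and the isozymes that muscle, brain or heart are known for were scarce. Aldoa stood at 196.5, 241.0 and 158.1 TPM and held 97.6% ± 1.06 of aldolase TPM, with the brain-type Aldoc at 6.43, 7.03 and 1.91. Triose phosphate isomerase Tpi1 stood at 73.0, 91.5 and 60.7 TPM. Gapdh was the highest member of all at 355.8, 656.4 and 276.9 TPM, and replicate 2 lay above the other libraries. Phosphoglycerate kinase Pgk1 stood at 87.5, 101.2 and 73.7 TPM.

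Pgam1, the mutase, stood at 115.2, 135.7 and 95.9 TPM. It exceeded Bpgm, the enzyme that makes the bisphosphoglycerate of red cells, by 5.15 ± 0.02, the tightest ratio of the 19 on this scale. The SD of that ratio was 0.07 with 0.1 in place of 1 added to TPM. In the second table it was 0.30, where that of Hk3 over Hk2 was 0.04. Eno1 stood at 84.1, 101.6 and 61.5 TPM and held 96.0% ± 1.11 of enolase TPM. The neuron-type Eno2 had a mean of 2.13 ± 0.24 TPM and the muscle-type Eno3 of 1.18 ± 0.13. Eno2 exceeded Eno3 by 0.52 ± 0.19, but without replicate 2 (0.51 ± 0.27) and in the second table (0.27 ± 0.26) that difference was within 2 SD. Pkm as a gene stood at 128.4, 154.5 and 117.4 TPM.

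Ldha, the lactate dehydrogenase subunit favoured in lactate-producing tissue, stood at 121.1, 148.4 and 106.0 TPM, and the heart-type Ldhb at 1.70, 1.75 and 1.41. Their log2 ratio, 5.58 ± 0.16, was the widest of the 19 pairs, and Ldhb rested on 88, 97 and 169.0 counts.

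**Figure D3:**
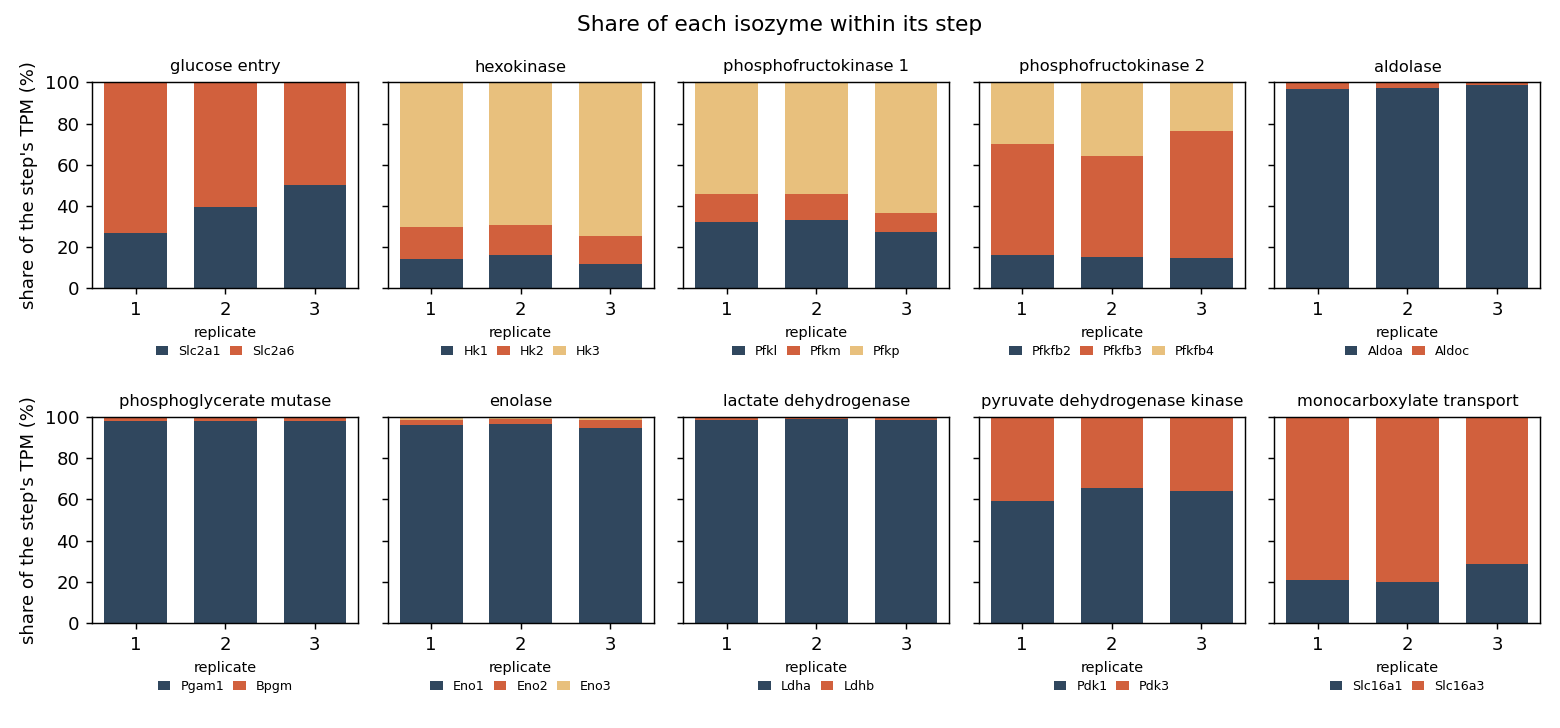
Share of each isozyme in the summed TPM of its step, in percent, 1 stacked bar per library for 10 steps with more than 1 member. Aldoa, Pgam1, Eno1 and Ldha fill over 94% of their bars in every library, Hk3 fills 69.3% to 74.4%, and the Slc2a6 part ranges from 49.8% to 73.4%.

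Among the 35 genes, the pyruvate dehydrogenase kinases, which inhibit the entry of pyruvate into the citrate cycle, were led by Pdk1. It stood at 6.52, 7.46 and 4.30 TPM, over Pdk3 at 4.50, 3.93 and 2.40 (0.62 ± 0.16). Outside protein-coding transcripts lay 10.5% of Pdk1 TPM in the first transcript table and 61.0% in the second. A further kinase outside the 35, Pdk2, named after its values were seen, stood at 3.56, 4.55 and 2.21 TPM. The 2 subunits of E1, the enzyme that the kinases act on, were Pdhb at 17.0, 25.2 and 13.6 TPM and Pdha1 at 17.1, 19.0 and 13.0. They differed by 0.15 ± 0.21, which was within the spread. The lactate exporter Slc16a3 stood at 6.85, 5.49 and 3.77 TPM and exceeded Slc16a1 (mean 1.56 ± 0.23) by 1.29 ± 0.32. Another carrier of the same family, Slc16a7, which is not among the 35, was higher than both at 23.9, 28.1 and 15.6 TPM. Hif1a stood at 19.1, 16.6 and 14.0 TPM. The pentose phosphate enzymes Pgd, at 68.0, 62.3 and 53.8 TPM, and G6pdx, at 45.5, 53.6 and 31.5, both exceeded the summed phosphofructokinase level in each library.

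When the isozymes of each core step were summed, the order ran from glyceraldehyde phosphate dehydrogenase (429.7 ± 200.3 TPM) through aldolase (203.7 ± 44.0), pyruvate kinase (133.4 ± 19.1), phosphoglycerate mutase (117.9 ± 20.4), hexokinase (91.5 ± 6.11), phosphoglycerate kinase (87.5 ± 13.7), enolase (85.7 ± 20.0), triose phosphate isomerase (75.0 ± 15.5) and glucose phosphate isomerase (71.2 ± 23.5) to phosphofructokinase 1 (16.8 ± 2.11). The first 4 places and the last were the same in all 3 libraries. Of the 9 neighbouring steps in this order, 6 were separate by the rule used for pairs. Hexokinase and phosphoglycerate kinase, phosphoglycerate kinase and enolase, and triose phosphate isomerase and glucose phosphate isomerase were not. Glucose phosphate isomerase exceeded phosphofructokinase by a log2 ratio of 2.04 ± 0.32. Without length normalization, which favours long transcripts, 3 of the 9 neighbours were separate.

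The transcripts behind these levels were not all ordinary coding transcripts. In 7 of 34 members, over 10% of the TPM lay outside transcripts annotated as protein-coding in both transcript tables, against 26.2% of detected protein-coding genes; the members' share was 20.6%. These were Slc2a6, Hk3, Gpi1, Pfkfb2, Pfkfb3, Pfkfb4 and Pdk1. In Gpi1 the nonsense-mediated decay transcript Gpi1-207, whose annotated coding part is 249 bases against 1674 in Gpi1-201, took 15.5%, 35.2% and 25.0% of the first table's TPM. Replicate 2, with the highest Gpi1 level, had the highest Gpi1-207 share. In Pfkfb4 the processed transcript Pfkfb4-205 held 29.7% in the first table and 20.1% in the second, and the retained-intron transcript Pfkfb4-204 appeared in the first table in replicate 2 only, at 18.6%.

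In Gapdh, Hif1a and Hk1, transcripts with different first exons and different coding lengths shared the RNA. Gapdh-203 (coding length 999 bases) held 61.3%, 40.9% and 56.7% of Gapdh TPM and Gapdh-202 (1077 bases) 37.8%, 43.6% and 40.1%, so the longer form led in replicate 2 only. Hif1a-201 (2508 bases) held 76.2% ± 4.82 and Hif1a-202 (2430 bases), which starts upstream of it, 22.9% ± 4.41. Hk1-202 (2754 bases) held 55.9% and Hk1-201 (2835 bases) 39.4% in the first table, and in the second the order turned, with 36.1% and 47.9%, although in replicate 3 Hk1-202 still led (39.2% and 36.4%).

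Hk1 was 1 of 5 members, of 32 with at least 2 transcripts above 0, whose main transcript by mean TPM differed between the tables (15.6%, against 10.6% of 9900 protein-coding genes). The others were Pfkm, Pfkp, Pfkfb3 and Aldoc. In Pfkm (Pfkm-205 and Pfkm-201), Pfkp (Pfkp-207 and Pfkp-201) and Aldoc (Aldoc-201 and Aldoc-202) the 2 rival transcripts have coding parts of equal length, 2340, 2352 and 1089 bases. In Pfkfb3 the rivals differ, Pfkfb3-220 with 1500 coding bases holding 34.3% of TPM in the first table and 9.00% in the second, where Pfkfb3-206 with 1560 took 45.6%. Single libraries of the first table could go the other way. There Pfkm-201 led in replicate 1 (66.7%), Pfkp-201 in replicate 3 (47.9%) and Pfkfb3-206 in replicate 2 (43.7%). In the second table Pfkm-205 led in replicate 3 (52.7%). Among genes whose main transcript was the same, Pdk1-201 held 89.5% in the first table and 39.0% in the second, and the processed transcript Hk2-202 held 28.1% in the first and 0% in the second.

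**Figure D4:**
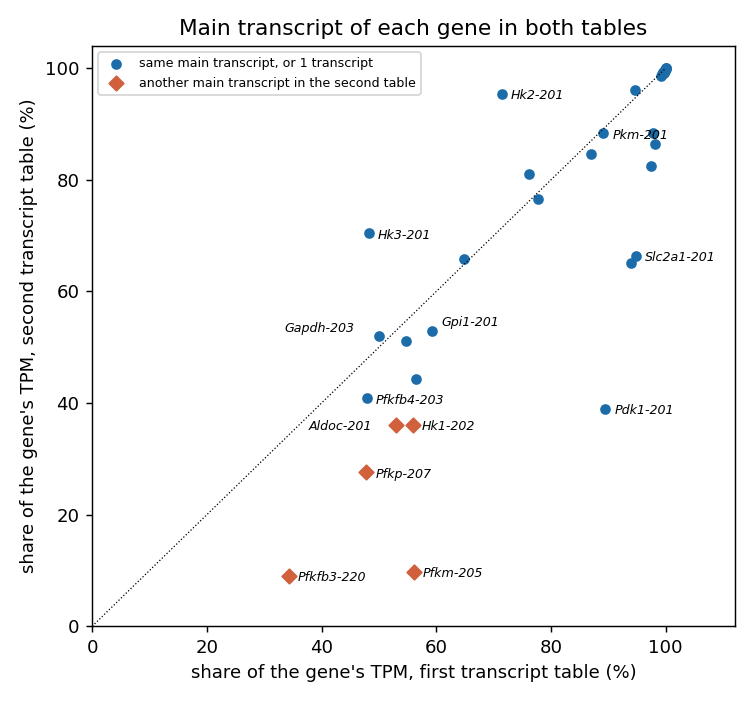
Share of each member's TPM held by its main transcript of the first table, in the first (x axis) and second (y axis) transcript table, in percent; the dotted line marks equality. The 5 orange diamonds are Hk1, Pfkm, Pfkp, Pfkfb3 and Aldoc, whose main transcript differs in the second table, and Pdk1-201 lies far below the line at 89.5% and 39.0%.

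Gene levels were compared between the tables as well. With both tables scaled to protein-coding genes and centred on the median gene, 0 of 35 members were over 1.5-fold apart in the same direction in all 3 libraries, against 1.63% of detected protein-coding genes. Pdk1 came nearest, 0.60, 0.75 and 0.51 higher on the log2 scale in the second table, and Hk2 was 0.46, 0.43 and 0.38 lower. TPM is scaled within each deposited table, so these differences are a description.

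The libraries were then compared for each gene with edgeR on rounded expected counts, testing whether the spread between the 3 libraries exceeded the trend of all genes at that level. The spread of 2 of 34 members tested (5.88%) exceeded the trend at an adjusted p under 0.05, against 1.71% of the 12250 genes tested; Fbp1 did not pass the filter on low counts. The median SD of log2 CPM was 0.16 for the members and 0.16 for all genes tested.

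Slc2a6 (ENSMUSG00000036067.12; mm10 chr2:27021363-27027998, minus strand) stood at 4.83, 3.84 and 3.86 log2 CPM, so replicate 1 was high and replicates 2 and 3 were alike (edgeR, adjusted p = 0.0197). The adjusted p was 0.9998 without replicate 1, 0.0929 without replicate 3 and 0.0501 without the filter on low counts. Its coding transcript Slc2a6-201 held 84.9%, 78.1% and 56.5% of the gene's TPM, and the processed transcript Slc2a6-205 5.83%, 11.1% and 22.6%.

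Aldoc (ENSMUSG00000017390.15; mm10 chr11:78322968-78327781, plus strand) stood at 4.24, 4.27 and 2.84 log2 CPM, so replicate 3, the most deeply sequenced library, was low with 403 counts against 717 and 738 (adjusted p = 0.00107, edgeR). Without replicate 3 the adjusted p was 0.999, and without replicate 1 it was 0.0283. Aldoa, by contrast, stood at 8.49, 8.68 and 8.60 log2 CPM. Gapdh, widely used as a reference gene, stood at 9.20, 9.80 and 9.25 log2 CPM, and its spread did not pass the test (edgeR, unadjusted p = 0.0853). Pfkfb2 had the smallest spread, an SD of 0.01, at 3.87, 3.85 and 3.88 log2 CPM.

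On this scale 8, 11 and 15 members were highest in replicates 1, 2 and 3, where the shares over all genes were 30.6%, 37.1% and 32.3%. Whether the nuclear protein-coding share of TPM given above for each library had a part in the values of Slc2a6 and Aldoc was not tested. The same holds for the neutrophil marker sum of 2.81, 3.47 and 3.86 TPM.

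**Figure D5:**
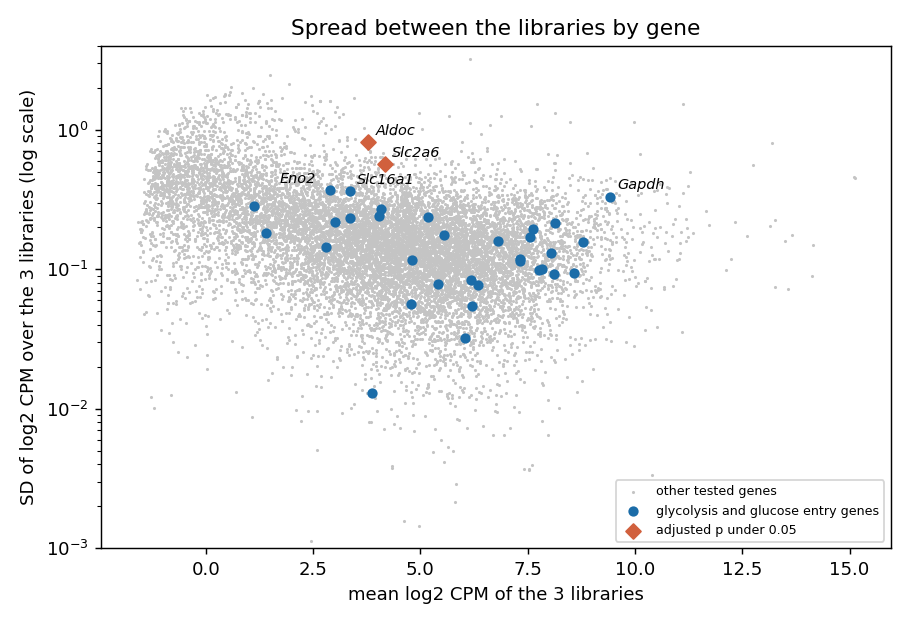
SD (log axis) against mean of log2 CPM over the 3 libraries for the 12250 genes tested, with members in blue and those at an adjusted p under 0.05 as orange diamonds. Aldoc and Slc2a6 lie at the upper edge of the genes of their level, and most members lie within the grey cloud.

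Some levels share reads with other genes. Gapdh has 78 genes of at least 95% identity over 200 bases or more, whose counts together came to 4.38%, 5.23% and 4.28% of its own, mainly the processed pseudogenes Gm7336, Gm10359 and Gm12671. Gm10359 and Gm12671 had the same counts in replicates 1 and 2 (232.6 and 423.7) and 699.3 and 5.59 in replicate 3. The copies of Pgk1, mainly Gm5537, came to 6.77%, 4.87% and 7.67% of its counts, those of Eno1 to 1.57%, 1.07% and 1.63%, and the 1 copy of Ldhb to 3.41%, 6.19% and 3.57%. On the same strand, the longest exon overlaps were those of Pfkfb2 with Gm29427 (1262 bases) and Pkm with Gm49759 (767). Gm29427 had 0 counts in each library, and Gm49759 had 34.9, 38.1 and 236 in replicates 1, 2 and 3. The longest exon overlaps with an opposite-strand coding gene were those of Pfkp with Pitrm1 (748 bases), Pdha1 with Map3k15 (603) and G6pdx with Ikbkg (418). The use of strand in counting is not given in the sources used here, and these levels are uncertain to that extent.

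Of 29 further isozymes and family members that are not among the 35, 9 reached 1 TPM, 18 were below 0.1 and 12 had no count in any library. The highest were Slc16a7, H6pd, which starts the pentose route inside the endoplasmic reticulum, at 7.29, 5.74 and 5.23 TPM, and Slc2a8. Among the 12 without a count was the pyruvate dehydrogenase kinase Pdk4, named here after its values were seen. Of 11 of these 29 genes tested for spread, 0 passed in edgeR after adjustment and 0 had an unadjusted p under 0.05.

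Of 8 genes of pyruvate entry and the pyruvate dehydrogenase complex, 7 reached 1 TPM. Mpc1, a subunit of the mitochondrial pyruvate carrier, was the highest at 99.6, 112.8 and 75.5 TPM, above its partner Mpc2 at 24.3, 20.3 and 15.0, and the E3 subunit Dld followed at 20.1, 18.7 and 16.5. Of 11 pentose phosphate and sugar branch genes, 10 reached 1 TPM, led by Taldo1 at 91.8, 74.4 and 76.0, Tkt at 61.8, 50.7 and 40.4, both of the non-oxidative branch, and Pgls, the lactonase between G6pdx and Pgd, at 33.6, 30.2 and 25.0.

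Of 11 genes of the HIF pathway, 9 reached 1 TPM. The angiogenic factor Vegfa stood at 83.6, 104.6 and 78.7 TPM, Txnip, known to restrain glucose uptake, at 47.9, 39.8 and 27.1, and Arnt, the DNA-binding partner of Hif1a, at 13.9, 15.3 and 10.4. The partner proteins that bring lactate carriers to the membrane were both present, Bsg at 96.7, 99.7 and 74.6 TPM and Emb at 46.7, 30.2 and 18.0. Over the 61 genes of these lists, 41 were tested for spread and 1 passed, Emb, at 7.50, 6.77 and 6.56 log2 CPM (edgeR, adjusted p = 0.0370). Like Slc2a6, Emb was highest in replicate 1.

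The members lie on 15 chromosomes, with 6 on chromosome 6 and 4 on X. On chromosome 6, Eno2 (124760053 to 124769673), Tpi1 (124810586 to 124814296) and Gapdh (125161715 to 125166467) are all on the minus strand, 40.9 kb and 347.4 kb apart, with mean levels of 2.13, 75.0 and 429.7 TPM. The 51 RefSeq promoter windows of the 35 genes (GRCm38.p6, 250 bases before to 50 after each start) were searched on both strands for ACGTG and GCGTG, the core letters of sites that HIF is known to bind. Of these, 40 (78.4%) held a match, against 62.0% of the 11571 windows of detected protein-coding genes and 43.8% of all 32851. The longer CACGTG, which contains ACGTG, was in 6 (11.8%), against 10.1% and 7.15%. A match is a description of the sequence and not a site in use.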

How the data were processed

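Each library had a gene table and a first transcript table of expected counts and TPM, and a second transcript table of estimated counts and TPM, which the authors made on mm10 with GENCODE M21, per the deposited notes. The sources used here do not name the tools. Members were matched by symbol, and the second ID of Aldoa, with at most 3 counts, was left out. The members and lists were chosen with earlier results of these data known. Every member is accounted for, and of the other pathway genes the 3 highest of each list, and any above the highest member of its step, are named. Detected means a mean of 0.1 TPM or more. Spread was tested with edgeR 4.0.16 in R 4.3.3 (expected counts rounded, filterByExpr, TMM, trended dispersion, goodness of fit, Benjamini-Hochberg over all genes). The procedure was also run on counts simulated at the trended dispersion. That simulation cannot show how it behaves on genes that scatter around the trend. The p-values measure only the spread between these libraries. Pairs used log2(TPM + 1). Near copies were found with blastn 2.17.0. Alternatives were DESeq2 1.42.0 size factors, other filters, scales, pseudocounts and tables, and each library left out. Chi-square per degree of freedom between libraries, on counts scaled to library totals only, was 58.5 to 145, beyond sampling noise. The libraries were therefore not copies of each other, and each was counted as a replicate. That value cannot tell biological from technical replicates, because any difference in RNA composition raises it.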

Additional observations from a re-analysis of the deposited data

How the results depend on the processing

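The count of members varying more than the trend was 2, 1 without the filter on low counts and between 0 and 2 with a library left out: Slc2a6 needed replicates 1 and 3, and Aldoc needed replicate 3. Without length normalization 3 of 9 neighbouring steps were separate in place of 6. The other counts and the M2 share of Pkm stayed within 1.5-fold or 1 SD under every alternative run, a wide margin. In the second table, 30 members in place of 34 had 1 TPM or more. Separate pairs there numbered 13 in place of 16, and separate neighbouring steps 4 in place of 6. The M2 share ran from 87.6% to 90.5% with a library left out. Of 133 recomputed pair ratios, 123 kept their direction and side of the rule, 7 were no longer separate, 1 became separate (Hk2 over Hk1 without replicate 2, 0.19) and 2 turned over: Hk2 over Hk1 in the second table (-0.31) and Pdhb over Pdha1 without length normalization (-0.85). Apart from the effect of removing length normalization or a library, the cause was not tested. The step order and the noncoding transcript share got alternatives chosen after seeing the data. Depth limits Eno3, Ldhb and Fbp1 most, with 65 to 140, 88 to 169.0 and 0 to 1 counts. No paired analysis was possible because the 3 libraries form 1 group.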
